A study of Sus scrofa with 9 samples.

Results

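Acrosome and sperm-egg interaction genes were measured in pig (Sus scrofa) testis biopsies. The list held 8 genes, 5 of which had a probe, with 9 probes among the 60889 on the array. These genes were ACR, ACRV1, ACRBP, SPACA1, IZUMO1, SPAM1, ZPBP and ADAM2. A probe was taken when the array annotation gave one of these symbols. ACR, ACRBP and ACRV1 had 1 probe each, ZPBP had 2 and ADAM2 had 4. No probe was found for SPACA1 or IZUMO1, so neither was analysed here. SPAM1 stands on the array under an older spelling, SPAM-1. Its 2 probes were matched through a RefSeq synonym and are described beside the 9, outside the counts. A further 9 probes carried the same 60 bases as one of the 9 and served as technical repeats, which gave 20 probes with 9 distinct sequences.

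The 9 one-colour arrays fell into groups of 3: control boars (2n=38,XY), an oligospermic boar with the same normal karyotype (2n=38,XY), and an oligo-astheno-teratospermic Landrace × Duroc crossbred boar carrying the reciprocal translocation trcp(1;14), called t(1;14) here. Neither affected group is a set of animals, since the oligospermic and the t(1;14) arrays hold repeated samples of 1 boar each. The methods name 3 fertile control boars and 3 separate extractions per animal, and the study's results speak of a pool of control boars. Neither says which array holds which boar or whether an array holds RNA pooled from several of them. The tests below therefore compare arrays, their p-values measure the spread between these samples, and other differences between the animals cannot be told apart from the karyotype. The biopsies were whole tissue, so that fewer spermatids and less RNA per spermatid cannot be told apart either.

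The acrosome is a secretory vesicle that round spermatids build from the Golgi apparatus and spread as a cap over the sperm nucleus. On contact with the egg it releases enzymes and binding proteins that act on the zona pellucida, the coat of the egg, and it exposes the membrane proteins used for adhesion and fusion. Most of its genes are transcribed in spermatocytes or spermatids, so that their transcripts serve as markers of late germ cells in testis tissue.

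ZPBP and ADAM2 each had probes that read different stretches of the transcript and gave different values, and whether the stretch bears on the value was not tested. The 3 sequences below each hold at least 1 reading frame free of stop codons over their 60 bases. They are given 5′ to 3′ in lower case as the array design has them, to show what was read where probes of a gene gave different values. ZPBP probe 2 starts at base 487 of its transcript in the array design, ADAM2 probe 1 at base 2008 and ADAM2 probe 3 at base 1032.
ZPBP probe 2: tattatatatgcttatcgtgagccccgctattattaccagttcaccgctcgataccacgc
ADAM2 probe 1: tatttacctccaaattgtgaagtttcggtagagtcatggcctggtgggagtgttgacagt
ADAM2 probe 3: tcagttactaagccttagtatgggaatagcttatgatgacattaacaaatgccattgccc
Probes of a gene are numbered here from the brightest. ZPBP probe 1 and ADAM2 probe 2 lie further towards the 3′ end of their transcripts, at bases 1044 and 2551. In the RefSeq gene table of the Sscrofa11.1 assembly, ACR and ACRBP lie on chromosome 5, ACRV1 and ZPBP on chromosome 9, ADAM2 on chromosome 15 and SPAM1 on chromosome 18, so that none of the measured genes lies on chromosome 1 or 14. SPACA1, without a probe, lies on chromosome 1.

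All 20 probes were well above background on all 9 arrays, on which between 37087 and 40632 probes reached that mark. The number of saturated probes on an array was 52 to 275. The ACRBP probe was saturated on oligospermic arrays 1 and 3 and its repeat on control array 1 and oligospermic array 1, and 1 repeat of the ACR probe was saturated on oligospermic array 1. No spot of these genes was saturated on a t(1;14) array.

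**Figure D1:**
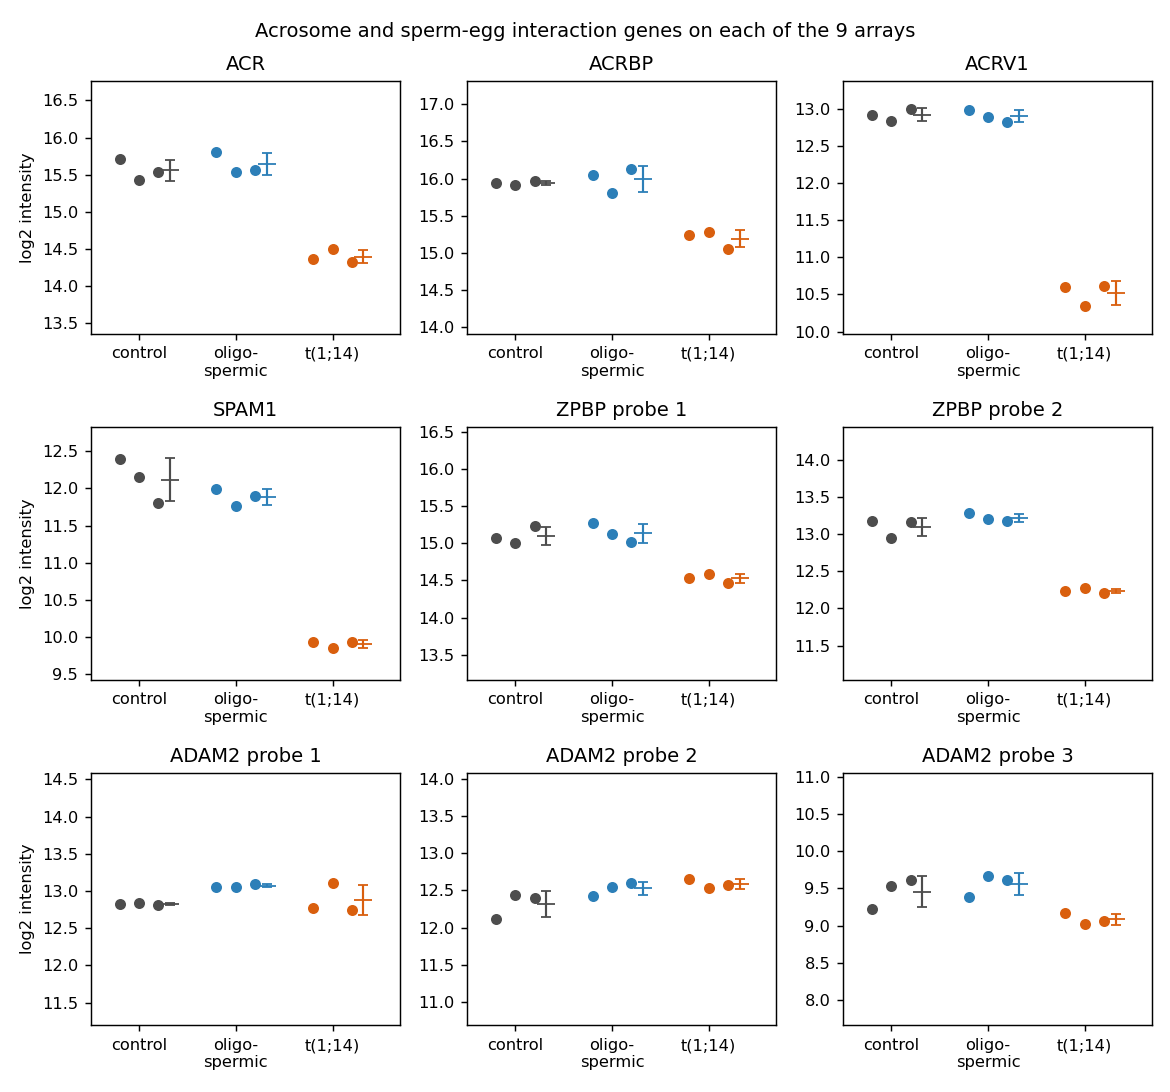
Quantile normalized log2 intensity (y axis, a window of equal height in each panel) of the 9 distinct probe sequences on the control, oligospermic and t(1;14) arrays (x axis), with 1 point per array and the mean ± SD of 3 arrays beside the points. The t(1;14) arrays sit below all 6 others for ACR, ACRBP, ACRV1, SPAM1 and both ZPBP probes, and for ADAM2 probe 3, whereas for ADAM2 probe 1 t(1;14) arrays 1 and 3 sit below them and array 2 above.

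In the t(1;14) testis, the transcripts of the acrosomal protease, its binding protein, the acrosomal vesicle protein and the zona binding protein were lower than in the controls, whereas ADAM2 gave no consistent difference. Of the 9 probes, 5 passed the test and all 5 were lower (ACR, ACRBP, ACRV1 and both ZPBP probes). A probe passed at an adjusted p of at most 0.01 in limma, with Benjamini-Hochberg adjustment over the 40643 probes tested. Over all tested probes, 15.6% passed as lower and 31.2% in either direction. The groups did not overlap, with t(1;14) lower, for 6 of the 9 probes, against 26.2% of all tested probes. With t(1;14) higher they did not overlap for 2 of the 9, which both carry the sequence of ADAM2 probe 2, against 35.8%. ACRV1 alone among the 9 also differed by at least 2 on the log2 scale, the methods' further threshold for a differential probe, which 4.3% of all tested probes met as lower. The median log2 difference of the 9 probes was -0.57, and that of all tested probes was 0.14, and the differences below are given without subtracting that shift. Without t(1;14) array 1 or without t(1;14) array 3, 2 of the 9 probes passed, those of ACR and ACRV1. The share of all tested probes that passed without these arrays was not computed.

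ACR encodes acrosin, the serine protease stored as a proenzyme in the acrosome. Its log2 intensity was 15.71, 15.43 and 15.54 on the control arrays, 15.81, 15.54 and 15.57 on the oligospermic arrays and 14.37, 14.50 and 14.33 on the t(1;14) arrays. The control and oligospermic values lay among each other, and every t(1;14) value lay about 1 unit under the lowest of them. ACR fell by 1.16 on the log2 scale in t(1;14) against control (SE 0.12, adjusted p = 7.1e-04 in limma), which is 2.23-fold lower. The 4 probes with this sequence differed between the groups by -1.24 to -1.10, and all 4 passed. On the 3 slides, each of which held 1 array of every group, ACR differed by -1.21 to -1.10, and with slide as a block its adjusted p was 0.0031.

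ACRBP encodes the acrosin-binding protein, which holds proacrosin in the acrosomal matrix. Its log2 intensity was 15.94, 15.91 and 15.97 on the control arrays, 16.05, 15.80 and 16.13 on the oligospermic arrays and 15.24, 15.28 and 15.06 on the t(1;14) arrays. It fell by 0.75 in t(1;14) against control (SE 0.11, adjusted p = 0.00259), and its repeat, saturated on control array 1, fell by 0.67 (adjusted p = 0.00621). The groups did not overlap. The control spots stood at 83.4% to 95.5% of the highest signal the scanner records before normalization, and those of t(1;14) at 38.7% to 76.7%. The effect of that ceiling on the difference was not tested. On single slides ACRBP differed by -0.85 to -0.66, and with slide as a block its adjusted p was 0.00877. The call was lost without t(1;14) array 1 (adjusted p = 0.0141) or without t(1;14) array 3 (adjusted p = 0.017), with differences of -0.76 and -0.65.

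**Figure D2:**
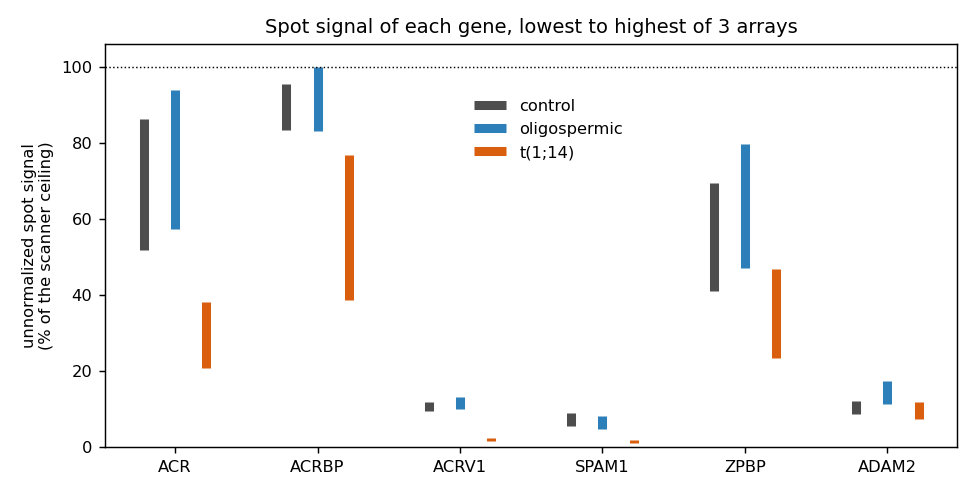
Range of the spot signal before normalization (y axis, percent of the scanner ceiling) over the 3 arrays of each group (bars from the lowest to the highest array) for the brightest probe of each gene (x axis). ACRBP lies close to the ceiling on control and oligospermic arrays, whereas ACRV1 and SPAM1 stay at or below 13.1%.

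ACRV1 encodes an acrosomal vesicle protein of the matrix, also known as SP-10, and showed the largest difference of the 9 probes. Its log2 intensity was 12.92, 12.83 and 13.00 on the control arrays, 12.98, 12.89 and 12.82 on the oligospermic arrays and 10.60, 10.34 and 10.62 on the t(1;14) arrays. The 6 arrays without the translocation spanned a narrow band, and the t(1;14) arrays lay clearly under it. ACRV1 fell by 2.40 in t(1;14) against control (SE 0.13, adjusted p = 1.2e-04), which is 5.28-fold lower. Its difference on single slides was -2.59 to -2.21. It passed both thresholds when any of the 6 arrays was left out, with differences of -2.46 to -2.31. The spots were far from the ceiling, at 9.4% to 11.9% of it on the control arrays and 1.56% to 2.28% on the t(1;14) arrays.

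SPAM1 encodes PH-20, the hyaluronidase of the sperm surface and inner acrosomal membrane that loosens the cumulus matrix around the egg. Its brighter probe gave 12.39, 12.15 and 11.81 on the control arrays, 11.99, 11.77 and 11.90 on the oligospermic arrays and 9.93, 9.85 and 9.94 on the t(1;14) arrays. The control arrays spread more widely than those of either other group. SPAM1 fell by 2.21 (SE 0.17, adjusted p = 2.2e-04) in t(1;14) against control and the second probe of the same sequence fell by 2.19 (adjusted p = 1.6e-04). Both probes met both thresholds. The differences on single slides were -2.53 to -1.87.

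ZPBP encodes a zona pellucida binding protein of the acrosomal matrix that takes part in forming the acrosome. Its probe 1 gave 15.07 and 15.23 on control arrays 1 and 3 and a lower value on control array 2 (group mean 15.10 ± 0.12, SD, n = 3), 15.27, 15.12 and 15.01 on the oligospermic arrays and 14.53, 14.59 and 14.46 on the t(1;14) arrays. Probe 2, whose sequence is given above, gave 13.17, 12.95 and 13.16, then 13.28, 13.20 and 13.18, and 12.23, 12.27 and 12.21 in the same order. Both probes separated t(1;14) from the other groups without overlap. Probe 2 fell by 0.85 in t(1;14) against control (SE 0.11, adjusted p = 0.00169). Probe 1 fell by 0.57 (SE 0.12, adjusted p = 0.00784), close to the limit of the test: of the 4 probes with its sequence, which differed by -0.57 to -0.47, 1 passed and the others had adjusted p-values of 0.0113 to 0.0121. With slide as a block its adjusted p was 0.0174. Its call was lost without any one of control array 1 or 3 or t(1;14) array 1, 2 or 3 (adjusted p = 0.0128 to 0.0412), and that of probe 2 without t(1;14) array 1 (adjusted p = 0.0112) or 3 (adjusted p = 0.0117), with every difference still below 0.

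ADAM2 encodes fertilin beta, a surface protein of the sperm membrane needed for sperm migration and binding to the zona. Its probe 1 gave 12.82, 12.84 and 12.81 on the control arrays, 13.06, 13.06 and 13.10 on the oligospermic arrays and 12.77, 13.11 and 12.75 on the t(1;14) arrays, of which array 2 lay above all control arrays and arrays 1 and 3 below them. The difference was 0.05 in t(1;14) against control, with a 95% interval of -0.27 to 0.38 (adjusted p = 0.762). On this probe the interval did not reach the differences of ACR, ACRV1 or either ZPBP probe. Probe 2 gave 12.11, 12.44 and 12.40 on the control arrays and 12.66, 12.53 and 12.57 on the t(1;14) arrays, and its 4 copies differed by 0.27 to 0.38, none of them passing (lowest adjusted p = 0.0467). Probe 3 was dimmer, at 9.22, 9.53 and 9.62 on the control arrays and 9.17, 9.02 and 9.06 on the t(1;14) arrays, and differed by -0.37 (95% interval -0.71 to -0.03, adjusted p = 0.0674). The 3 sequences of ADAM2 therefore pointed in different directions, and none passed against control. The partner of ADAM2 in fertilin is fertilin alpha. Its brighter probe, chosen here from its description after values were seen, differed by -0.04 (SE 0.18, adjusted p = 0.881), and its other probe by -0.39 (SE 0.23, adjusted p = 0.206).

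**Figure D3:**
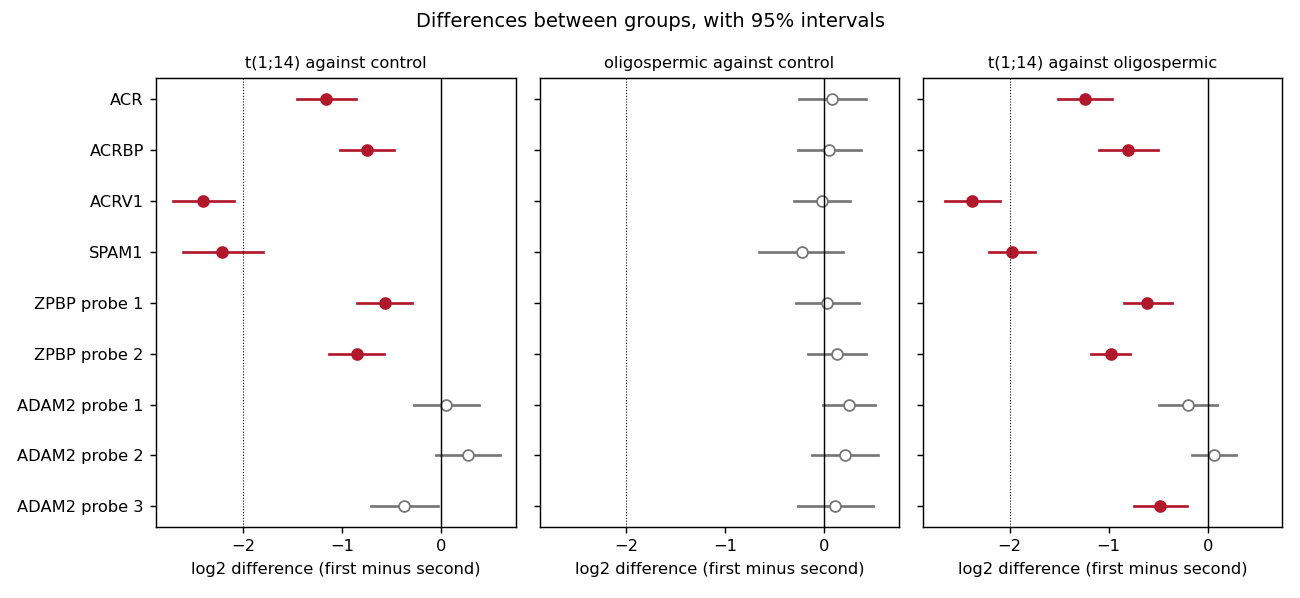
Log2 difference (x axis) of each distinct probe sequence (y axis) in the 3 comparisons, with 95% intervals from limma; filled red points passed at an adjusted p of at most 0.01, open grey points did not, and the dotted line marks -2. ACRV1 lies beyond the dotted line in both comparisons with t(1;14), SPAM1 lies beyond it against control and just short of it against oligospermic (-1.98), and no point is filled in the comparison of oligospermic with control.

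The size of the difference was compared between genes within the same arrays. Each pair of genes was subtracted array by array and centred on the control mean. On the t(1;14) arrays ACRV1 minus ACR was -1.24 ± 0.25 (SD, n = 3) and SPAM1 minus ACR was -1.05 ± 0.14. ACR minus ZPBP probe 1 was -0.58 ± 0.04. ZPBP probe 2, which fell by 0.85 in t(1;14) against control, was not paired with ACR. Against ADAM2 probe 1, ACR differed by -1.21 ± 0.11 and ACRV1 by -2.45 ± 0.36. The t(1;14) and control arrays did not overlap in any of these 5 pairs, which were chosen with the values known. The share of other gene pairs that separate was not computed. Taken singly, 26.2% of all tested probes separated these groups as lower and 35.8% as higher. The exact two-sided permutation p was 0.1 for each, before and after adjustment over the 5. That is the smallest value that 3 arrays against 3 allow and the only one possible once they separate, so it adds no support.

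In the oligospermic testis, no difference from control was detected for any of these genes. Of the 9 probes, 0 passed in limma, where 0.0755% of the 39713 tested probes did, and 0 had an unadjusted p under 0.05, where 9.84% of all tested probes did. The differences of the 9 probes ran from -0.02 to 0.25. For ACRV1 the difference was -0.02 with a 95% interval of -0.31 to 0.26, for ACR 0.08 (-0.26 to 0.42) and for ACRBP 0.05 (-0.27 to 0.37), although its probe was saturated on oligospermic arrays 1 and 3, so that a higher level there could not be read. SPAM1 differed by -0.23 (-0.66 to 0.19) and ZPBP probe 2 by 0.13 (-0.17 to 0.42). The largest value belonged to ADAM2 probe 1, 0.25 (-0.01 to 0.51, adjusted p = 0.52), for which each oligospermic value exceeded each control value. Such a separation, with oligospermic higher, was seen for 2 of the 9 probes, ADAM2 probe 1 and ZPBP probe 2, beside 8.02% of all tested probes.

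Against the oligospermic arrays, the t(1;14) testis gave 6 probes of 9 that passed, all of them lower, where 22% of the 40567 tested probes passed as lower and 49.1% in either direction. This comparison shares its t(1;14) arrays with the first. ACR fell by 1.24 (adjusted p = 1.7e-04), ACRV1 fell by 2.38 (adjusted p = 2.2e-05) and ACRBP fell by 0.80 (adjusted p = 0.00171), the latter measured against a probe saturated on oligospermic arrays 1 and 3, where only a lower limit of its signal is known. The ZPBP probes differed by -0.61 and -0.98 (adjusted p = 0.00247 and 1.4e-04). SPAM1 differed by -1.98 on its brighter probe and by -2.06 on the other, on either side of the fold threshold of 2. ADAM2 probe 3 passed here and fell by 0.48 (SE 0.11, adjusted p = 0.00896), whereas ADAM2 probe 1 differed by -0.20 (95% interval -0.49 to 0.09) and the 4 copies of probe 2 by 0.06 to 0.15. The call of ADAM2 probe 3 was lost without oligospermic array 2 or 3 or without any one t(1;14) array (adjusted p = 0.0204 to 0.0338), and that of ZPBP probe 1 without t(1;14) array 1 (adjusted p = 0.0117) or 3 (adjusted p = 0.0136), all with differences below 0.

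Other genes of the acrosome and of fertilization were counted from 5 lists of 90 genes, of which 42 were tested, each through its brightest probe. In t(1;14) against control, 25 were lower, 1 was higher and 16 did not pass, where 15.6% of all tested probes passed as lower and 31.2% in either direction. In oligospermic against control 0 of the 42 passed in limma and 1 had an unadjusted p under 0.05, beside 0.0755% and 9.84% of all tested probes. In t(1;14) against oligospermic 27 were lower and 2 higher, beside 22% of all tested probes that passed as lower and 49.1% in either direction.

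Acrosome formation was the list with most tested genes. Of its 14 tested genes, 12 were lower in t(1;14) than in control, with a median difference of -1.30 beside 0.14 for all tested probes. The largest falls belonged to HIPK4, a kinase of spermatids (-3.02, SE 0.15, adjusted p = 1.2e-04), and to the actin-like proteins of the perinuclear and subacrosomal region, ACTL7A (-2.97), ACTL7B (-2.74) and ACTL9 (-2.08). ACTL7A gave 12.48, 12.73 and 12.59 on the control arrays and 9.75, 9.51 and 9.63 on the t(1;14) arrays. The 2 that did not pass were SMAP2 (0.03, adjusted p = 0.886) and SPINK2, an inhibitor of acrosin (-0.13, adjusted p = 0.385). The SPINK2 probe was saturated on 2 control arrays, 2 oligospermic arrays and 1 t(1;14) array, so that a difference could not be read from it. In all, 3 of the 14 probes were saturated on at least 1 array.

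Acrosomal matrix proteins and enzymes gave 4 lower genes of 5 tested, with a median of -1.68. EQTN, equatorin of the acrosomal membrane, fell by 2.53 (SE 0.16, adjusted p = 1.5e-04), the lysozyme-like LYZL4 by 2.27, CRISP2, which binds sperm to Sertoli cells and lies in the acrosome, by 1.68, and zonadhesin (ZAN) by 0.85. The fifth, ZPBP2, the paralogue of ZPBP, differed by -0.30 (adjusted p = 0.0731).

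Sperm-egg adhesion and fusion gave 3 lower genes of 6 tested, with a median of -0.72. DCST2, a membrane protein needed for fusion, fell by 3.67 (SE 0.28, adjusted p = 2.1e-04). It was well above background on 2 of the 3 t(1;14) arrays, so that the size of its fall is not exact. ADAM29 fell by 2.60 and ADAM5 by 0.95, and ADAM30 differed by -0.50 (adjusted p = 0.0274). IZUMO1 had no probe, and a single probe described as IZUMO3-like, chosen after values were seen and outside the counts, fell by 2.20 (SE 0.17, adjusted p = 2.2e-04).

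Maturation of sperm surface proteins was the list that did not lean to one side. Of its 4 tested genes 1 was lower, the sulphotransferase TPST2 (-0.77, adjusted p = 0.00371), and 1 was higher, TEX101, a germ cell surface protein that escorts ADAM3 (0.83, SE 0.12, adjusted p = 0.00221). The TEX101 call was lost without any one of the 3 t(1;14) arrays and with the replicate block, where 0 list genes were higher. The chaperone calmegin (CLGN), which folds fertilin in the endoplasmic reticulum, differed by 0.31 (adjusted p = 0.157). Probes of ACE disagreed: the brightest differed by 0.22 (adjusted p = 0.624) and the 4 others by -2.82 to -2.08.

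Acrosomal exocytosis and calcium entry gave 5 lower genes of 13 tested, with a median of -0.52. The largest falls were those of CATSPER1 (-2.46), PLCD4, a phospholipase of the acrosome reaction (-2.16), CATSPER4 (-2.13) and CATSPER3 (-2.06), the CATSPER proteins being pore subunits of the sperm calcium channel. CATSPER2 differed by -0.10 on its brightest probe and by -0.96 on its other.

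**Figure D4:**
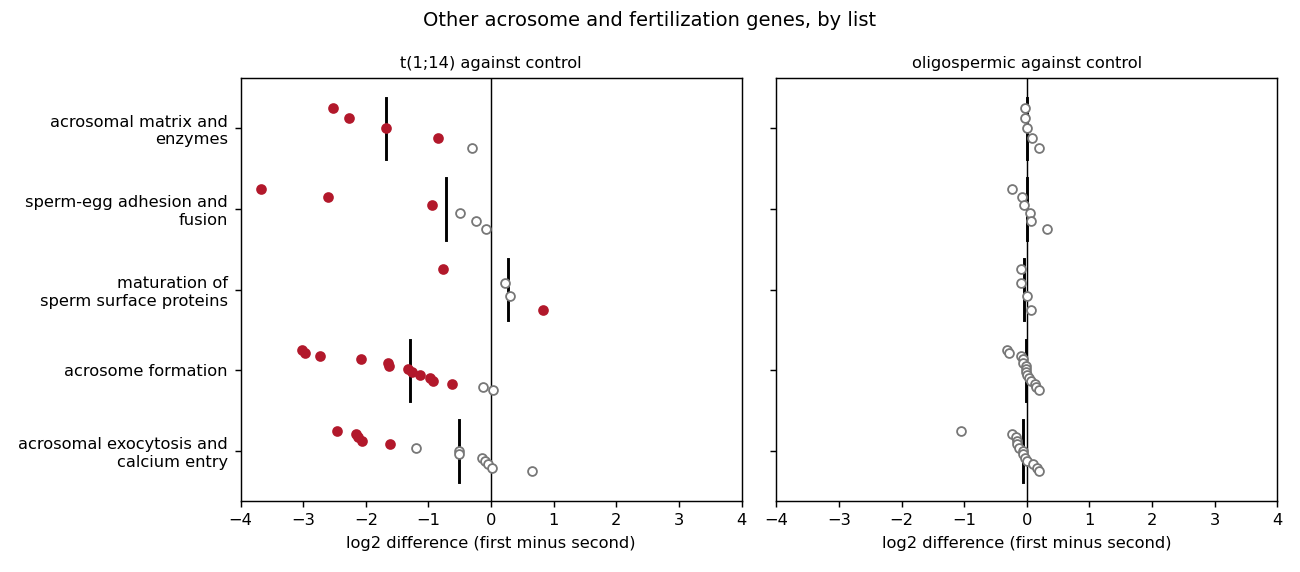
Log2 difference (x axis) of each tested gene in the 5 lists (y axis) for t(1;14) against control (left) and oligospermic against control (right); filled red points passed at an adjusted p of at most 0.01, open points did not, and black bars mark list medians. In t(1;14), 25 of 42 genes lie to the left as filled points and 1 to the right, and in the oligospermic comparison none is filled.

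A small list set up from the array annotation, the acrosin inhibitor LOC396905, other hyaluronidases and seminal plasma proteins, gave 4 tested genes of 9. None passed in t(1;14) against control in limma, and 1 had an unadjusted p under 0.05, the seminal plasma protein PSP-I (-1.91, SE 0.67, adjusted p = 0.052). That probe, its brightest, was well above background on all 3 control arrays but on 1 of the 3 t(1;14) arrays, so that only its control signal let it into the test. The 2 other tested probes of PSP-I, dimmer on average over the 9 arrays, both passed as lower. These dim probes give no exact size of the difference. LOC396905 differed by -0.17 and HYAL2 by 0.06.

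Most tested markers of spermatids were lower in t(1;14) and most of those of Leydig cells higher, while each of the other cell type lists had 1 to 3 genes that passed. The counts stand beside 15.6% of all tested probes that passed as lower and 31.2% in either direction. Of 10 tested spermatid markers, 7 were lower in t(1;14) than in control and 0 higher, with a median of -2.01. Their summed log2 level was 18.70 to 18.82 on control arrays, 18.77 to 18.81 on oligospermic arrays and 17.90 to 18.05 on t(1;14) arrays. That sum was capped by the scanner, since 4 of the 10 probes were saturated on at least 1 array, and without them it was 17.11 to 17.29, 17.27 to 17.41 and 14.95 to 15.07. The probe of the protamine PRM1 was saturated on all 9 arrays and that of the transition protein TNP1 on all control and oligospermic arrays, so that no difference could be read for PRM1. TSSK2, a kinase of spermatids, fell by 2.55. Of 7 tested Leydig cell markers, 5 were higher in t(1;14), with a summed level of 16.01 to 16.08 on control, 15.69 to 16.10 on oligospermic and 17.12 to 17.26 on t(1;14) arrays (13.38 to 13.82, 13.39 to 13.87 and 16.10 to 16.35 without 1 probe saturated on some arrays). STAR, which carries cholesterol into the mitochondrion for steroid synthesis, was higher by 3.72. Of 6 tested spermatocyte markers, 2 were lower and 1 higher (summed level 16.20 to 16.35 on control and 15.64 to 15.78 on t(1;14) arrays), and of 5 spermatogonium markers, 1 was higher (12.84 to 13.29 and 13.70 to 13.75). Among the lower spermatocyte markers, the brightest probe of SPO11 differed by -1.03 and its other tested probe by 0.73. Of 7 Sertoli cell markers 1 was lower. Their sum, 16.36 to 16.54 and 16.51 to 16.70, was set by CLU, whose probe was saturated on all 9 arrays, and was 13.53 to 14.52 and 14.39 to 14.65 without it. Of 6 peritubular and vascular markers 1 was lower and 2 higher (13.78 to 14.65 and 13.90 to 14.32), and of 5 immune markers 1 was lower and 1 higher, with a median difference of 0.50. The summed level of the immune markers, 11.88 to 12.04 and 10.57 to 10.79, followed the brightest, CD79A (-1.53), against the sign of that median, and CD14 was higher by 1.30. The 2 other tested probes of CD79A disagreed, at -1.42 and 0.50. GFRA1, a defining marker of spermatogonia, was not above background in any group. The part of these shifts in the differences of the acrosome genes was not tested.

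The genes whose profile over the 9 arrays lay closest to the acrosome genes were sought among 6374 other genes. Likeness was the root mean square difference from the median profile of the 6 measured genes, each centred on its own mean, which ran from 0.22 to 0.37 on control, 0.27 to 0.48 on oligospermic and -0.76 to -0.56 on t(1;14) arrays. The closest were TDRD7, a tudor protein of germ cell granules (0.0392), GPX4, a selenium-containing peroxidase abundant in spermatids (0.0553), MXI1 (0.0572), TASP1 (0.0591), SEC23B (0.0649) and ADIPOR1 (0.0675). These 6 genes differed by -1.02 to -0.87 between t(1;14) and control, which follows from their selection by that profile and is no separate result.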

How the data were processed

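RNA of testis biopsies was labelled with cyanine 3 and hybridized to a custom porcine Agilent array. The authors deposited, per the file headers, the Feature Extraction intensity of each spot after background subtraction, without normalization between arrays. A second deposited table, of log2 values, covers 38759 of the 60889 probes and is quantile normalized: sorted, the arrays differ by at most 0.0016. It holds 19 of the 20 probes described and differs from the values used here by at most 0.07.

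The log2 intensity was quantile normalized over the 9 arrays, and the 6 arrays of a comparison were fitted in limma 3.58.1 (R 4.3.3). The test took in probes that 1 or both groups showed well above background, free of outlier flags, on 2 or more of their 3 arrays. To pass, a probe needed an adjusted p no higher than 0.01, and the methods' differential call also needs an absolute log2 difference of 2 or more. Both thresholds, limma and the 2 of 3 filter follow the methods. Intervals are 95% intervals of the fit. The number of arrays limits the precision, with a median SD within a group of 0.24 (control), 0.18 (oligospermic) and 0.13 (t(1;14)) over 41105 probes. One symbol could be given to 16342 probes, several to 4 and none to 44543.

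All 8 genes and every probe found are described. From each list, up to 4 genes with the largest absolute difference in t(1;14) against control are named, and for each marker list at most 3 genes, picked after values were seen. Others named are those that did not pass or whose probes disagreed, picked after values were seen. The genes and lists were chosen with earlier results of these data known.

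Replicate numbers were checked for pairing by the correlation of deviations from the group means. Between t(1;14) and control it was -0.285, -0.194 and 0.139, and between t(1;14) and oligospermic -0.421, -0.335 and 0.121, so these numbers do not pair arrays. Between oligospermic and control it was 0.478, 0.136 and 0.101, and there the number is also that of the slide. Arrays of 1 slide correlated at 0.109 to 0.339 for t(1;14) and control and at 0.292 to 0.489 for t(1;14) and oligospermic. The fits were tested on simulated data. The alternatives were 75th percentile scaling, normalization over 6 arrays, normexp with an offset of 50, the authors' log2 values, no filter, a filter in both groups, all groups in 1 model, slide or replicate number as a block, a fold threshold of 1, the median over probes, and leaving out each array.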

Additional observations from a re-analysis of the deposited data

How the results depend on the processing

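ACR, ACRV1 and SPAM1 kept their direction and an adjusted p of at most 0.01 in both comparisons with t(1;14) under every alternative tested. Against oligospermic the SPAM1 difference ran from -2.09 to -1.89, on both sides of the fold threshold. In t(1;14) against control ACR ranged from -1.27 to -1.09, ACRV1 from -2.53 to -2.26 and SPAM1 from -2.36 to -2.07, and ACRBP, ZPBP probe 1 and ZPBP probe 2 kept their direction (-0.81 to -0.61, -0.70 to -0.51 and -1.02 to -0.81). No value of the oligospermic comparison passed under any alternative. Leaving out 1 array gave 2 to 5 probes of the 9 that passed in t(1;14) against control, 17 to 26 list genes lower, 0 to 1 list genes higher, and 1 to 2 list genes higher in t(1;14) against oligospermic. Under the other settings 20 to 28 list genes were lower in that first comparison. With a fold threshold of 1 on the log2 scale in place of 2, 2 of the 9 probes met both thresholds in each comparison with t(1;14). The shares of all tested probes given above belong to the main fit and its thresholds. None was computed for this threshold, for the other settings or with 1 array left out. In t(1;14) against oligospermic the list genes that were higher numbered 1 with 75th percentile scaling, without a filter, with all groups in 1 model and with the replicate block, and 3 with slide as a block. With slide as a block 4 of the 9 probes passed in t(1;14) against control, those of ACR, ACRBP and ACRV1 and ZPBP probe 2, and 6 in t(1;14) against oligospermic. ADAM2 probe 1 passed in that comparison with normexp correction (-0.34, adjusted p = 0.00459).

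With the replicate number as a block, 2 of the 9 probes passed in t(1;14) against control, those of ACR and ACRV1, with 0 list genes higher, and 3 passed in t(1;14) against oligospermic. The share of all tested probes that passed with this block was not computed, so a loss particular to these genes cannot be read from the counts. ACRBP had adjusted p-values of 0.0207 and 0.013 there and ZPBP probe 1 of 0.0418 and 0.0162. In oligospermic against control, where the number is also that of the slide, the block changed no call. The causes of these changes were not tested. With 3 arrays per group and 1 boar behind each affected group, a difference of the size of ZPBP probe 1 lay close to the threshold, and the effect of spots near the scanner ceiling, as for ACRBP, was not tested.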
